A study of Mus musculus with 14 samples.

Results

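The 10 genes described here, Vegfa, Slc2a1, Hk2, Pgk1, Ldha, Pdk1, Egln3, P4ha1, Bnip3 and Ndrg1, are known targets of the hypoxia-inducible factors (HIF) and were chosen by name, 10 of 53465 genes counted. All 10 were found in the count tables under 1 Ensembl identifier each and passed the expression filter in every comparison. Their transcripts were measured in anterior cingulate cortex, a midline frontal region, by bulk RNA sequencing of 14 libraries from 2 inbred mouse strains. The groups were AKR/J mice after observational fear conditioning (AKR OFL, 3 libraries), C57BL/6NJ mice after the same procedure (B6N OFL, 3 libraries), naive AKR/J mice (4 libraries) and naive C57BL/6NJ mice (4 libraries). In that procedure an animal observes another being given foot shocks. The labels give no age, sex or time after the procedure and name no allele or transgene. Nor do they say whether each library is a separate animal, so every p-value here measures the spread between libraries, and that spread may be technical. The series title names ARNT2, a protein that pairs with HIF alpha subunits, and somatostatin interneurons.

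HIF is a pair of proteins, an oxygen-labile alpha subunit (HIF-1 alpha, HIF-2 alpha encoded by Epas1, or HIF-3 alpha) and a stable beta subunit (ARNT, or ARNT2 in neurons). When oxygen is present, prolyl hydroxylases of the EGLN family mark the alpha subunit, the VHL protein binds the mark and the subunit is degraded. When oxygen falls, the pair accumulates, binds short DNA elements and raises the transcription of genes for glucose uptake, glycolysis, vessel growth, collagen modification and removal of mitochondria. In brain, these genes are also expressed at normal oxygen, and neurons, glia and vessel cells use them to different extents.

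Total counts per library were 13487311 to 14396289 in AKR OFL, 14063573 to 14526253 in B6N OFL, 19073921 to 23782061 in naive AKR and 20583264 to 25780227 in naive B6N. The OFL and naive libraries stand in separate deposited tables, and 78.7% of the genes tested passed between them in AKR and 78.4% in B6N, so that condition and library set cannot be told apart. Levels are CPM, counts scaled to a common library size, with TMM, a factor per library that makes the bulk of genes comparable. A gene was called when its adjusted p in edgeR's quasi-likelihood test was under 0.05 over all genes tested. Neuron markers (8 genes, among them Snap25 and Slc17a7) summed to 6267 to 6378 CPM in AKR OFL, 6432 to 6580 in B6N OFL, 6804 to 6998 in naive AKR and 6779 to 7029 in naive B6N. Within that sum single markers differed between the sets in opposite directions: Map2 averaged 1913 CPM in AKR OFL against 1006 CPM in naive AKR and 2195 CPM in B6N OFL against 1234 CPM in naive B6N, and Slc17a7 averaged 736 CPM in AKR OFL against 1365 CPM in naive AKR and 707 CPM in B6N OFL against 1320.0 CPM in naive B6N. Of the 8 neuron markers, 1 was called higher and 6 lower in OFL libraries of each strain. Choroid plexus markers (5 genes, among them Ttr) summed to at most 5.83 CPM in any library.

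The letters ACGTG and GCGTG, read on either strand, form the core of the element that HIF binds. RefSeq promoters (build GRCm38.p6) were at hand for 9 members, all but Ndrg1, and the 250 bases before the most upstream start were searched. ACGTG or GCGTG occurred in 8 of the 9, against 38.6% of the 27025 promoters of this length, and ACGTG alone occurred in 7 of the 9, against 16.5%. Ldha and Bnip3 had 5 matches each, P4ha1 had 3, Slc2a1, Pgk1 and Hk2 had 2, and Pdk1 and Egln3 had 1. Matches within CACGTG, which other factors also bind and which counts on both strands, occurred in Ldha and Bnip3. The 4 promoters shown belong to Slc2a1 and P4ha1, whose strain difference was not the same in the 2 library sets, to Pdk1, which was lower in AKR in both, and to Egln3, the member that was higher in AKR. Capitals mark the matches, each sequence runs 5′ to 3′ on the strand of the gene, and its last base is the one before the start. The windows are chr4:119108495-119108744 (plus strand) for Slc2a1, chr10:59323046-59323295 (plus strand) for P4ha1, chr2:71872974-71873223 (plus strand) for Pdk1 and chr12:54203875-54204124 (minus strand) for Egln3.
Slc2a1: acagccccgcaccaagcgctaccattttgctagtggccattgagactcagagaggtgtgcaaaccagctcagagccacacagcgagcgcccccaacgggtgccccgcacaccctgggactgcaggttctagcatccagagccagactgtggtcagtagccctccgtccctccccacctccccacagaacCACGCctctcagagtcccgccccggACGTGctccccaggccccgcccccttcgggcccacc
P4ha1: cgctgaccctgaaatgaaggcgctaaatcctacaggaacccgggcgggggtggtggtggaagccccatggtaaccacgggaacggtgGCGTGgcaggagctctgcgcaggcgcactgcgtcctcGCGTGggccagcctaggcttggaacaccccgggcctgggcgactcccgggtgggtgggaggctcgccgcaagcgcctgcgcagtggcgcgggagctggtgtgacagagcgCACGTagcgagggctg
Pdk1: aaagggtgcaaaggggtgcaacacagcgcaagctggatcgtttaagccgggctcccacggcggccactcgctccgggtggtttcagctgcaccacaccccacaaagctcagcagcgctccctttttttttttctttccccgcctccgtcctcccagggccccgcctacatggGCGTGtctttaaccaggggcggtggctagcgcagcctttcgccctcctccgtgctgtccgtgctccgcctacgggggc
Egln3: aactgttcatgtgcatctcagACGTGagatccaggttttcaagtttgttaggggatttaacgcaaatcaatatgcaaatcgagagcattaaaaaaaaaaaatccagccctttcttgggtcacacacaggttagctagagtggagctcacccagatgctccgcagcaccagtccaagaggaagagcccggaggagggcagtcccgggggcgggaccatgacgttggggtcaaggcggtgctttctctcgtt
Counted from the start, where the last base printed is -1, the Slc2a1 matches begin at -61 and -36, those of P4ha1 at -163, -126 and -16, the Pdk1 match at -78 and the Egln3 match at -229. These are matches of letters and carry no information on whether HIF binds there in this tissue.

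Per kilobase of summed exon length, the glycolysis gene Pgk1 had the highest mean of the 10 members in all 4 groups and the hexokinase gene Hk2 the lowest. Pgk1 stood at 124 ± 4.54 CPM per kb in AKR OFL, 124 ± 6.81 in B6N OFL, 159 ± 4.05 in naive AKR and 159 ± 1.58 in naive B6N (SD, n = 3 and 4). Hk2 stood at 0.809 ± 0.166, 0.784 ± 0.0619, 0.61 ± 0.108 and 0.79 ± 0.0800 CPM per kb in the same order of groups, and its lowest count in any library was 53. In naive B6N the order below Pgk1 was Ldha (90.7 CPM per kb), Slc2a1 (45.6), Bnip3 (18.4), Vegfa (17.9), P4ha1 (17.8), Pdk1 (9.77), Ndrg1 (7.09), Egln3 (4.47) and Hk2. The neighbours Bnip3, Vegfa and P4ha1 (SDs of 0.64, 0.416 and 1.74) lay closer together there than the SD of P4ha1. In AKR OFL, Bnip3 (42.9 ± 2.66) stood above Slc2a1 (26.0 ± 0.95) and P4ha1 (23.5 ± 2.46) above Vegfa (12.6 ± 0.904).

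**Figure D1:**
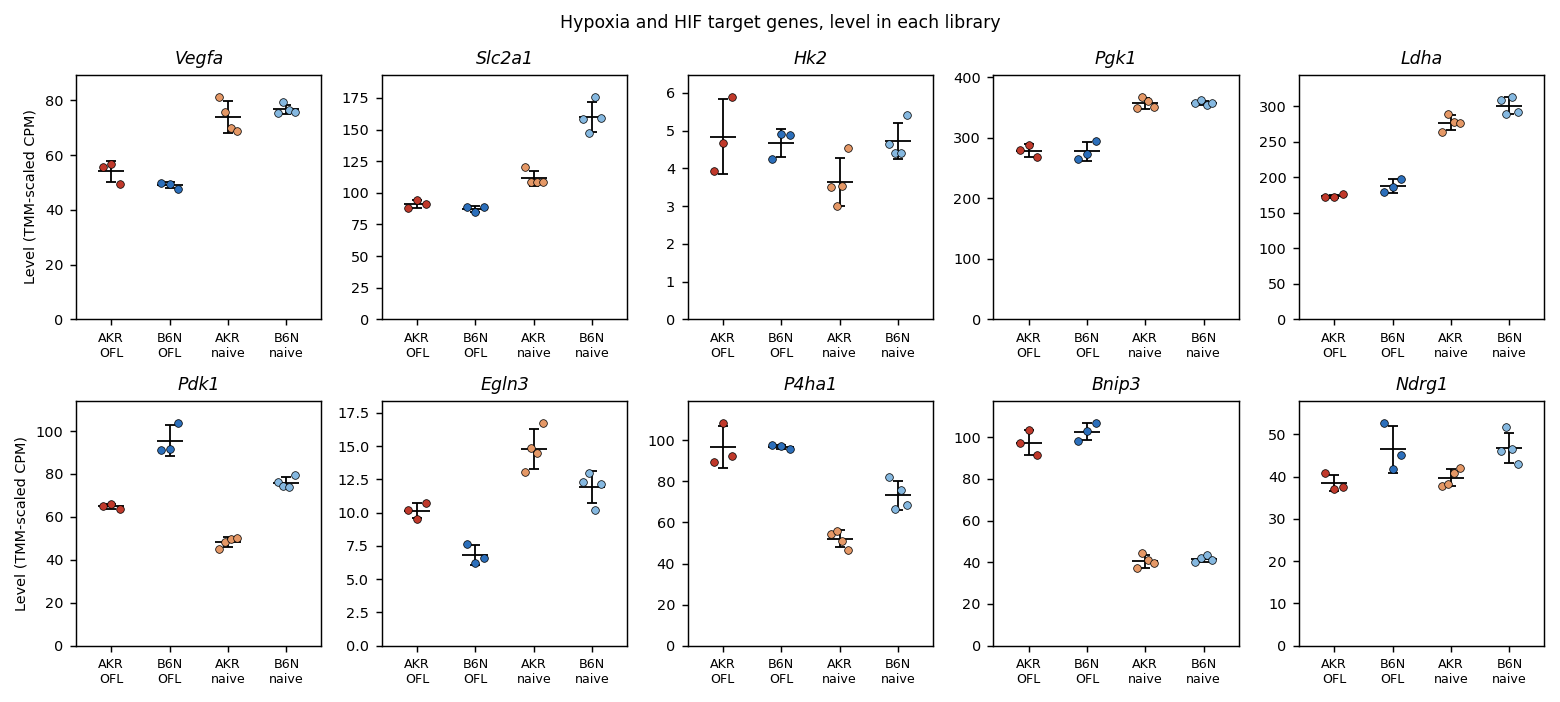
TMM-scaled CPM of the 10 members in each library (points), with the mean and SD of the group (line and whiskers), for AKR OFL and B6N OFL (n = 3 each) and naive AKR and naive B6N (n = 4 each); each panel starts at 0 and has its own scale. Slc2a1 and P4ha1 separate the strains in the naive groups and not in the OFL groups, and Bnip3 lies between 91.3 and 107 CPM in OFL libraries and between 37.1 and 44.3 CPM in naive ones.

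The first question was how the strains differ. In naive cortex 6 of the 10 members were lower in AKR and 1 was higher, where 37.8% of all 17645 genes tested were called, 19.5% lower and 18.3% higher. The members' median log2 difference (AKR minus B6N) was -0.18, against 0.01 over all genes. In OFL libraries 2 of 10 were lower and 1 was higher, where 16.4% of 17994 genes were called, 8.86% lower and 7.50% higher, and the members' median was -0.01. The strains did not overlap for 5 of 10 members in naive libraries, against 34.7% of all genes tested. In OFL libraries they did not overlap for 4 of 10, against 31.2%. In bulk tissue, fewer cells of a type and less RNA per cell cannot be told apart, and this holds for each difference below. Reads of both strains were counted on build GRCm38. The part of sequence differences between the strains in the counts was not tested.

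**Figure D2:**
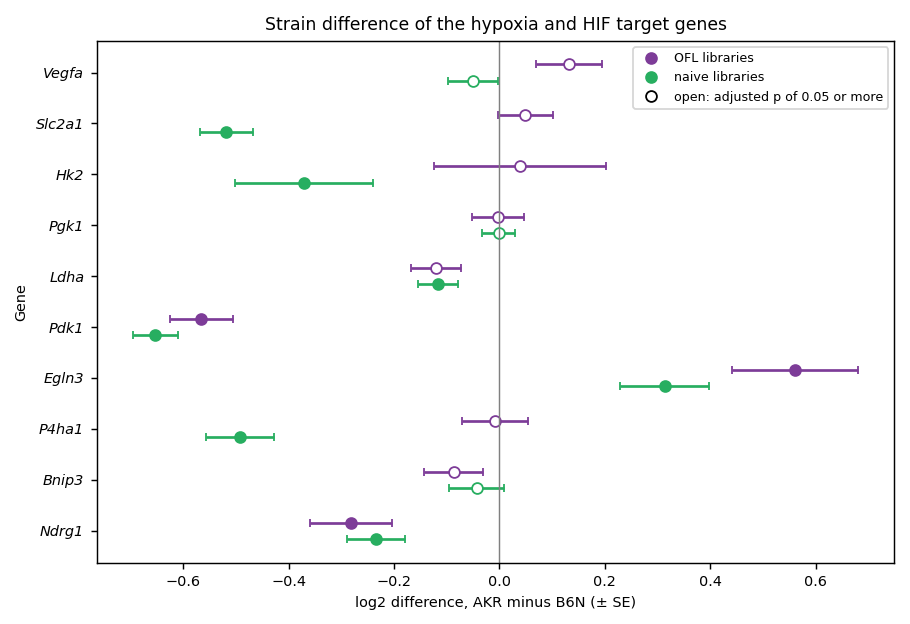
The log2 difference of each member, AKR minus B6N, in OFL libraries (purple) and in naive libraries (green), with its standard error as whiskers; filled points passed at an adjusted p under 0.05 and open points did not. Pdk1 and Ndrg1 lie below 0 and Egln3 above 0 in both sets, while Slc2a1 and P4ha1 lie below 0 in naive libraries and near 0 in OFL libraries.

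Glucose enters brain cells and crosses the vessel wall through GLUT1, the transporter encoded by Slc2a1 (ENSMUSG00000028645, GRCm38 chromosome 4, 119108711 to 119137983, plus strand). Slc2a1 was at 120.4, 109, 108 and 109 CPM in naive AKR, against 158, 147, 176 and 159 CPM in naive B6N, and no AKR library reached the lowest B6N library. The log2 difference was -0.52 (SE 0.05, adjusted p = 2.92e-07), a fold of 0.698. In OFL libraries it was at 87.7, 94.3 and 91.1 CPM in AKR, against 88.5, 84.7 and 89.1 CPM in B6N. These groups overlapped, and the difference was 0.05 (SE 0.05, adjusted p = 0.600). Slc2a1 is strongly expressed by brain endothelium. Endothelial markers (10 genes, among them Cldn5 and Pecam1, none at 0) summed to 333 to 375 CPM in naive AKR, against 316 to 341 CPM in naive B6N, with 4 of 10 higher and 1 lower. The sum averaged 352 ± 17.7 CPM in naive AKR and 327 ± 12.3 CPM in naive B6N (SD, n = 4 each), and its markers did not move as one. Slco1a4, an anion transporter gene, made up most of that gap with 77.0 CPM in naive AKR against 53.7 CPM in naive B6N, while Flt1 was called lower (94.0 CPM in naive AKR against 104.2 CPM in naive B6N). In OFL libraries the endothelial sum was 323 to 327 CPM in AKR and 293 to 308 CPM in B6N, with 3 of 10 higher and 1 lower in AKR. Between the sets 2 of 10 were higher and 5 lower in OFL libraries of AKR, and 3 higher and 4 lower in those of B6N. The part of endothelial cells in the Slc2a1 differences was not tested.

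Hexokinase 2, encoded by Hk2 (ENSMUSG00000000628, chromosome 6, 82725025 to 82774454, minus strand), traps glucose in the cell by phosphorylation. It was scarce, at 3.49, 3.01, 3.52 and 4.54 CPM in naive AKR, against 4.64, 4.41, 4.39 and 5.41 CPM in naive B6N, with overlapping ranges. It was called lower in naive AKR at -0.37 (SE 0.13, adjusted p = 0.0335). It was not called when AKR naive replicate 1 (adjusted p = 0.0686), 2 (0.113) or 3 (0.0684) or B6N naive replicate 1 (0.0575) or 4 (0.114) was left out, nor with DESeq2 (0.0556). After OFL the difference was 0.04 (SE 0.16, adjusted p = 0.916).

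Pgk1 (ENSMUSG00000062070, chromosome X, 106187100 to 106203699, plus strand) encodes the glycolytic enzyme that makes the first ATP of the pathway, and its level was close to equal in the strains. It ranged from 348 to 367 CPM in naive AKR, against 353 to 362 CPM in naive B6N, a log2 difference of -0.001 (SE 0.03, adjusted p = 0.983). After OFL the levels were 280, 288 and 268 CPM in AKR, against 265, 272 and 295 CPM in B6N, a log2 difference of -0.003 (SE 0.05, adjusted p = 0.983). Of the 31-base stretches of Pgk1 transcripts, 54.7% also occur in the processed copy Pgk1-rs7, and the copies of Pgk1 that are in the tables together held 0 to 4 counts in a library, so the level of Pgk1 is uncertain.

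Lactate dehydrogenase A, encoded by Ldha (ENSMUSG00000063229, chromosome 7, 46841475 to 46855627, plus strand), turns pyruvate into lactate. Ldha was at 264, 290, 277 and 276 CPM in naive AKR, against 309, 289, 313 and 291 CPM in naive B6N. The ranges touched, with 1 AKR library above the lowest B6N library, and the difference of -0.12 (SE 0.04) was called at an adjusted p of 0.0216. Leaving out AKR naive replicate 1 (0.0571) or 4 (0.0510) or B6N naive replicate 1 (0.0737) or 3 (0.0878) ended that call. In the OFL set it stood at 173, 172 and 176 CPM in AKR, against 179, 187 and 197 CPM in B6N, with no overlap. The difference of -0.12 (SE 0.05, adjusted p = 0.0987) was not called, and was called without B6N OFL replicate 1 (0.0195). Stretches of Ldha recur in 20 pseudogenes, and those in the tables made up 0.295% to 4.28% of the joint count of Ldha and these pseudogenes.

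Pyruvate dehydrogenase kinase 1, encoded by Pdk1 (ENSMUSG00000006494, chromosome 2, 71873224 to 71903858, plus strand), switches off the enzyme complex that feeds pyruvate into mitochondria. Pdk1 had the largest strain difference of the members in naive libraries, and in OFL libraries it lay about as far from 0 as Egln3 did. It was at 45.3, 48.5, 49.5 and 49.97 CPM in naive AKR, against 76.1, 74.5, 73.9 and 79.6 CPM in naive B6N. After OFL it was at 64.9, 66.2 and 63.6 CPM in AKR, against 91.3, 91.5 and 103.7 CPM in B6N. The groups did not overlap in either set, and the log2 difference was -0.65 (SE 0.04, adjusted p = 1.81e-09) in naive libraries and -0.57 (SE 0.06, adjusted p = 9.57e-07) in OFL libraries. The related kinase genes did not follow it. Pdk2 was at 121 CPM in both naive strains (log2 0.002, adjusted p = 0.975) and was higher in AKR after OFL, at 46.0 CPM against 35.3 CPM in B6N (log2 0.37, SE 0.07, adjusted p = 0.00112).

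PHD3, encoded by Egln3 (ENSMUSG00000035105, chromosome 12, 54178981 to 54203860, minus strand), is a prolyl hydroxylase whose own gene is itself induced by HIF. Egln3 was at 13.0, 14.8, 14.5 and 16.7 CPM in naive AKR, against 12.3, 13.0, 10.2 and 12.2 CPM in naive B6N. Following OFL it was at 10.2, 9.54 and 10.7 CPM in AKR, against 7.68, 6.23 and 6.58 CPM in B6N. Every AKR library lay above every B6N library of its set, though by little in the naive set, and the log2 difference was 0.31 (SE 0.08, adjusted p = 0.00723) in naive libraries and 0.56 (SE 0.12, adjusted p = 0.0024) in OFL libraries. The hydroxylase gene Egln1, which is also among the other HIF targets counted below, differed in the other direction. It was at 82.5 CPM in naive AKR against 110.0 CPM in naive B6N (log2 -0.41, SE 0.03, adjusted p = 5.65e-08) and at 58.3 CPM in AKR OFL against 68.7 CPM in B6N OFL (-0.25, SE 0.06, adjusted p = 0.00366).

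The collagen prolyl hydroxylase subunit encoded by P4ha1 (ENSMUSG00000019916, chromosome 10, 59323296 to 59373304, plus strand) acts in the endoplasmic reticulum. P4ha1 was at 54.6, 55.9, 51.1 and 46.7 CPM in naive AKR, against 82.0, 66.4, 75.9 and 68.7 CPM in naive B6N. The naive groups did not overlap, and the log2 difference was -0.49 (SE 0.07, adjusted p = 1.28e-05), a fold of 0.711. In OFL libraries it was at 89.5, 108 and 92.6 CPM in AKR, against 97.6, 97.1 and 95.8 CPM in B6N, a difference of -0.01 (SE 0.06, adjusted p = 0.958). The AKR OFL libraries lay on both sides of the B6N ones.

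Ndrg1 (ENSMUSG00000005125, chromosome 15, 66929318 to 66969640, minus strand) encodes a stress-responsive protein that is abundant in myelinating cells. It was at 37.8, 38.2, 40.8 and 42.1 CPM in naive AKR, against 46.0, 51.6, 46.5 and 43.1 CPM in naive B6N (log2 -0.23, SE 0.05, adjusted p = 0.00263). After OFL the levels were 40.8, 37.2 and 37.5 CPM in AKR, against 52.7, 41.7 and 45.0 CPM in B6N (-0.28, SE 0.08, adjusted p = 0.0159). The ranges did not overlap in either set, yet the OFL difference was not called when AKR OFL replicate 2 (adjusted p = 0.0541) or 3 (0.0569) or B6N OFL replicate 1 (0.0767, with a difference of -0.19) was left out. Oligodendrocyte markers (8 genes, among them Mbp and Mog, none at 0) summed to 1120 to 1368 CPM in AKR OFL, 1196 to 1744 in B6N OFL, 1768 to 2050 in naive AKR and 1645 to 2346 in naive B6N. Of these 8, none was called higher and 2 lower in AKR OFL against B6N OFL, and 3 were higher and 2 lower in naive AKR against naive B6N. The part of these cells in the Ndrg1 difference was not tested.

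Vegfa and Bnip3 did not pass between the strains. Vegfa (ENSMUSG00000023951, chromosome 17, 46016993 to 46032369, minus strand), the growth factor for blood vessels, was at 81.3, 75.7, 70.0 and 68.9 CPM in naive AKR, against 75.3, 79.2, 76.5 and 75.6 CPM in naive B6N (log2 -0.05, SE 0.05, adjusted p = 0.442). In the OFL set it stood at 55.8, 56.7 and 49.6 CPM in AKR, against 49.9, 49.5 and 47.6 CPM in B6N (0.13, SE 0.06, adjusted p = 0.175). Bnip3 (ENSMUSG00000078566, chromosome 7, 138890836 to 138909519, minus strand), which marks mitochondria for removal by autophagy, had a log2 difference of -0.04 (SE 0.05, adjusted p = 0.560) in naive libraries and -0.09 (SE 0.06, adjusted p = 0.342) in OFL libraries.

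The second question was how the members differ between OFL and naive libraries of each strain, with condition and library set inseparable. In AKR, 4 of 10 members were higher and 5 lower in OFL libraries, where 78.7% of 20291 genes were called, 39.8% higher and 38.8% lower. In B6N, 3 were higher and 5 lower, where 78.4% were called, 40.0% higher and 38.4% lower. The members' median absolute log2 difference was 0.44 in AKR and 0.52 in B6N, against 0.62 and 0.61 over all genes. The members therefore were called about as often as other genes, and they moved in both directions.

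**Figure D3:**
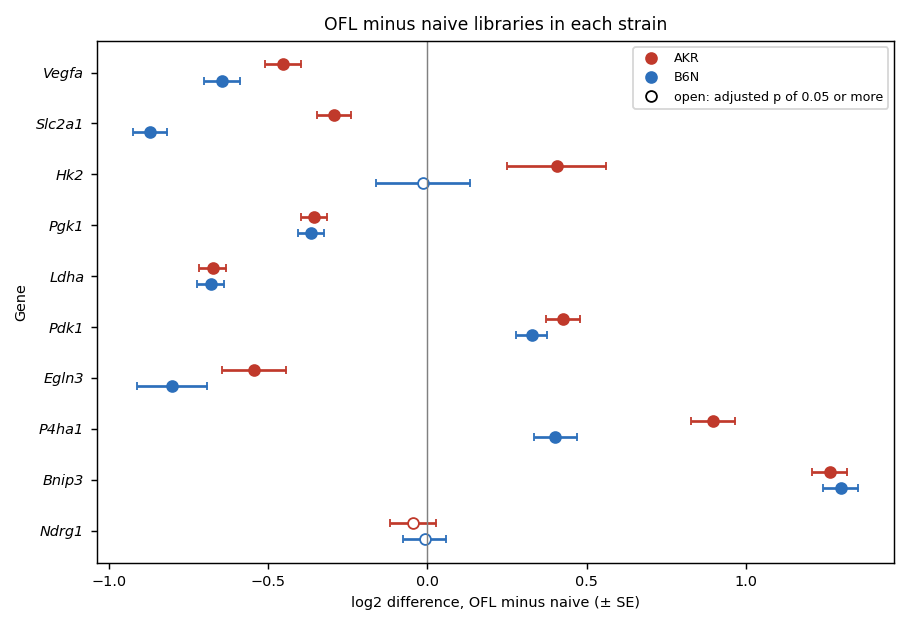
The log2 difference of each member, OFL minus naive, in AKR (red) and in B6N (blue), with its standard error as whiskers; filled points passed at an adjusted p under 0.05 and open points did not. Bnip3, P4ha1 and Pdk1 lie above 0 and Vegfa, Slc2a1, Pgk1, Ldha and Egln3 below 0 in both strains, with Slc2a1 and P4ha1 set apart between the strains.

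Bnip3 had the largest difference of the members. It was at 97.0, 103 and 91.3 CPM in AKR OFL, against 37.1, 44.3, 40.9 and 39.5 CPM in naive AKR. In B6N it was at 98.2, 103.0 and 106.7 CPM after OFL, against 40.2, 42.1, 43.6 and 41.2 CPM in naive libraries. The sets were far apart in both strains, with log2 differences of 1.26 (SE 0.06, adjusted p = 2.48e-17) in AKR and 1.30 (SE 0.05, adjusted p = 1.03e-17) in B6N. The related mitophagy gene Bnip3l, among the family relatives counted below and given after its values were seen, went the other way. It averaged 112 CPM in AKR OFL against 130.5 CPM in naive AKR, and 118 CPM in B6N OFL against 132 CPM in naive B6N. The antisense gene Gm45507, with 0 to 5 counts in OFL libraries and 0 in naive ones, covers 22.3% of the exonic sequence of Bnip3. Up to 17.7% of the 31-base stretches of Bnip3 recur in 1 of 4 pseudogene copies. Summing the counts of the copies changed no call. The strand setting of the counting is not given for either set and may differ between them, which would touch a gene with antisense exons such as Bnip3, and its part in this difference was not tested.

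P4ha1 and Pdk1 were higher in OFL libraries of both strains. For P4ha1, in the libraries listed above, the log2 difference was 0.90 (SE 0.07, adjusted p = 5.7e-12) in AKR and 0.40 (SE 0.07, adjusted p = 6.57e-06) in B6N. For Pdk1 it was 0.43 (SE 0.05, adjusted p = 4.1e-08) in AKR and 0.33 (SE 0.05, adjusted p = 9.47e-07) in B6N. The OFL and naive libraries overlapped in neither gene. Hk2 was called higher in AKR, with means of 4.83 ± 0.993 CPM after OFL (SD, n = 3) and 3.64 ± 0.645 CPM in naive libraries (SD, n = 4), log2 0.41 (SE 0.16, adjusted p = 0.0204). Leaving out AKR OFL replicate 3 (0.24, adjusted p = 0.218) or AKR naive replicate 2 (adjusted p = 0.0717) ended that call. In B6N the difference of Hk2 was -0.01 (SE 0.15, adjusted p = 0.935).

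Slc2a1, Vegfa, Ldha, Pgk1 and Egln3 were lower in OFL libraries of both strains, with no overlap between the sets. The sets did not overlap for 8 of 10 members in each strain, against 76.7% of all genes tested in either strain. Slc2a1 was at 91.0 ± 3.33 CPM in AKR OFL and 112 ± 5.83 CPM in naive AKR (log2 -0.29, SE 0.05, adjusted p = 1.77e-05). In B6N it was at 87.5 ± 2.41 CPM in OFL libraries and 160.0 ± 11.9 CPM in naive ones (-0.87, SE 0.05, adjusted p = 3.16e-14). Ldha differed by -0.67 in AKR and -0.68 in B6N (SE 0.04 each), and Pgk1 by -0.36 and -0.37 (SE 0.04 each). Vegfa differed by -0.45 in AKR and -0.65 in B6N (SE 0.06 each), and Egln3 by -0.55 (SE 0.10) and -0.80 (SE 0.11). The largest adjusted p among these 10 values was 2.1e-05. Ndrg1 had differences of -0.05 in AKR (SE 0.07, adjusted p = 0.563) and -0.01 in B6N (SE 0.07, adjusted p = 0.910). Its level was 38.5 ± 1.99 CPM in AKR OFL and 39.7 ± 2.05 CPM in naive AKR, and 46.5 ± 5.62 CPM in B6N OFL and 46.8 ± 3.57 CPM in naive B6N.

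When only protein-coding nuclear genes free of opposite-strand exons were fitted, the OFL minus naive differences shifted upward by a median of 0.15 (AKR) and 0.18 (B6N) over the genes common to both fits. The 7 members in that fit are all but Slc2a1, Bnip3 and Ndrg1. Of them, 7 were called in AKR and 6 in B6N, each called one in the direction given above. Pgk1, the smallest of the lower ones, stood at -0.21 in AKR and -0.18 in B6N there.

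The third question was whether the OFL minus naive difference was the same in the strains. The interaction (the difference in AKR minus that in B6N) was called for 2 of 10 members, Slc2a1 and P4ha1, both positive, where 5.15% of 20291 genes were called, 3.61% positive and 1.54% negative. For Slc2a1 it was 0.58 (SE 0.07, adjusted p = 1.86e-05): its level was lower in OFL libraries by a fold of 0.816 in AKR and 0.547 in B6N. For P4ha1 it was 0.49 (SE 0.10, adjusted p = 0.00247): its level was higher in OFL libraries by a fold of 1.86 in AKR and 1.32 in B6N. In both genes naive AKR lay below naive B6N while the OFL groups overlapped. Among the uncalled members the interaction was 0.42 for Hk2 (SE 0.22, adjusted p = 0.326), 0.26 for Egln3 (SE 0.15, adjusted p = 0.411), 0.19 for Vegfa (SE 0.08, adjusted p = 0.199) and 0.10 for Pdk1 (SE 0.07, adjusted p = 0.542). Ldha (0.01, SE 0.06), Pgk1 (0.01, SE 0.06), Bnip3 (-0.03, SE 0.08) and Ndrg1 (-0.04, SE 0.10) were nearest to 0. Endothelial markers had 2 of 10 called negative and a median interaction of -0.001. In the fit of protein-coding nuclear genes free of opposite-strand exons, which leaves out Slc2a1, P4ha1 stood at 0.46 (adjusted p = 0.0100), and 57.0% of the genes called there were positive, against 70.1% in the fit of all genes.

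Among the genes that make and control HIF, the subunit genes Epas1 and Hif3a were also lower in naive AKR and had a called interaction. Epas1, the alpha subunit gene of endothelium and glia, was at 168, 149, 149 and 155 CPM in naive AKR, against 189, 191, 198 and 209.7 CPM in naive B6N (log2 -0.34, SE 0.04, adjusted p = 8.85e-06). After OFL it was at 128, 106 and 116 CPM in AKR, against 115, 101 and 97.0 CPM in B6N (0.15, SE 0.07, adjusted p = 0.146), and the interaction was 0.50 (SE 0.09, adjusted p = 0.000473). Hif3a, whose short forms can hold back HIF, was at 15.4 ± 1.27 CPM in naive AKR and 23.2 ± 1.07 CPM in naive B6N (SD, n = 4 each), a difference of -0.59 (SE 0.07, adjusted p = 1.56e-06), and its interaction was 0.84 (SE 0.13, adjusted p = 0.000106). The strains' OFL levels of Hif3a, 9.72 CPM in AKR and 8.16 CPM in B6N, did not differ past the threshold (0.24, SE 0.11, adjusted p = 0.163).

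Hif1a, the widely expressed alpha subunit gene, went with neither. It was slightly higher in naive AKR, at 67.9 CPM against 61.8 CPM in naive B6N (log2 0.14, SE 0.04, adjusted p = 0.00856), and was at 105 CPM in AKR OFL and 102.5 CPM in B6N OFL (0.03, SE 0.05, adjusted p = 0.801). Between sets it was higher in OFL libraries by 0.63 in AKR and 0.73 in B6N (SE 0.04 each), and antisense exons cover 5.6% of its exonic sequence. Of the beta subunit genes, Arnt2 was higher in AKR in naive libraries (0.68, SE 0.03, adjusted p = 1.69e-11) and in OFL libraries (0.78, SE 0.04, adjusted p = 2.61e-11), and Arnt was called in neither (0.02 and 0.16, adjusted p = 0.699 and 0.158). Egln2 (-0.05 in naive and 0.07 in OFL libraries) and Vhl (-0.04 and 0.01) were not called between the strains either. Between sets, Epas1 (-0.41 and -0.92), Arnt (-0.31 and -0.46), Arnt2 (-0.35 and -0.46), Egln1 (-0.50 and -0.68) and Egln2 (-0.65 and -0.77) were lower in OFL libraries of AKR and B6N in that order of values. Hif3a averaged 9.72 CPM in AKR OFL against 15.4 CPM in naive AKR and 8.16 CPM in B6N OFL against 23.2 CPM in naive B6N. Vhl averaged 49.5 CPM in AKR OFL against 53.4 CPM in naive AKR and 48.9 CPM in B6N OFL against 55.0 CPM in naive B6N.

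**Figure D4:**
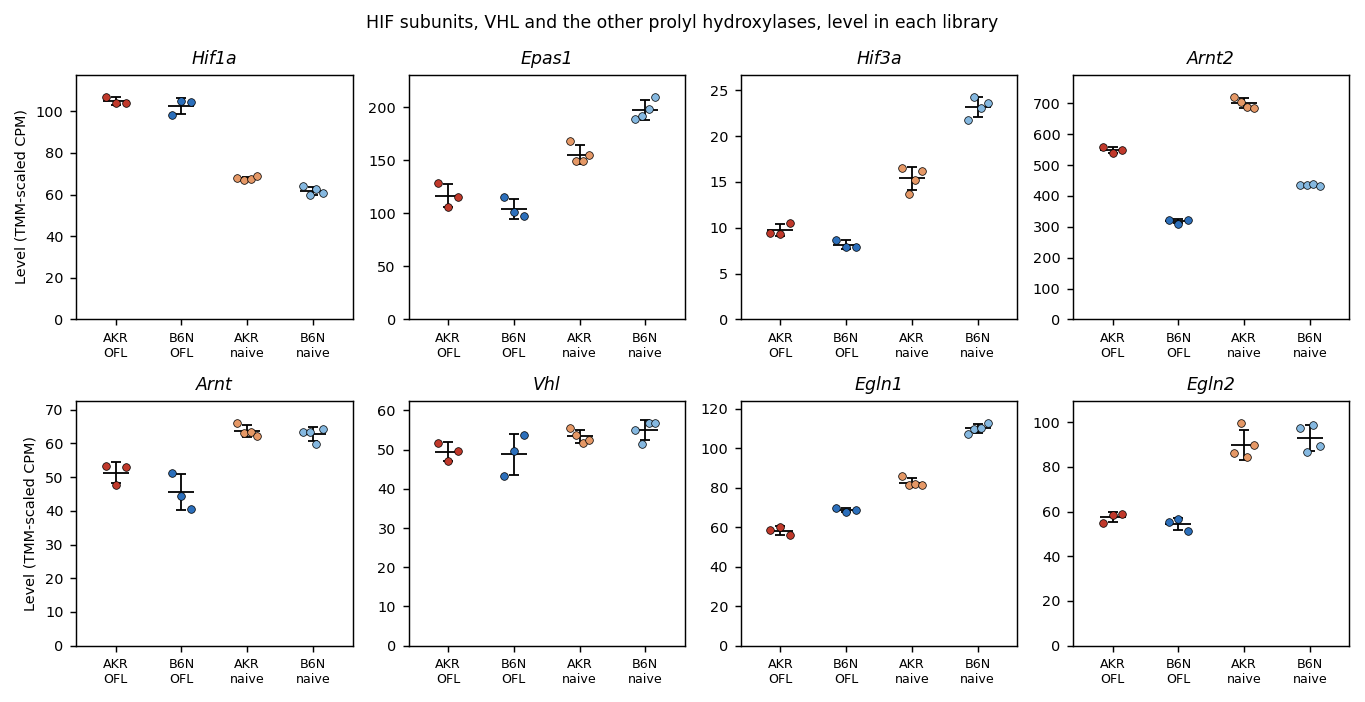
TMM-scaled CPM in each library (points) of 4 HIF subunit genes with Arnt, Vhl, Egln1 and Egln2, with the mean and SD of the group (line and whiskers), for AKR OFL and B6N OFL (n = 3 each) and naive AKR and naive B6N (n = 4 each); each panel starts at 0 and has its own scale. Arnt2 lies higher in AKR in both sets, and Epas1 and Hif3a separate the strains in the naive groups.

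Of the 20 genes of the HIF machinery list, 3 were higher and 5 lower in naive AKR, and 2 higher and 1 lower in AKR OFL against B6N OFL, where 18.3% and 19.5% of all genes were higher and lower in the naive comparison and 7.50% and 8.86% in the OFL comparison. Those of the OFL comparison were Arnt2, Egln1 and the chaperone gene Hsp90ab1 (0.16, SE 0.04, adjusted p = 0.0068), the last of which was named after its values were seen. Between the sets, 5 of the 20 were higher and 13 lower in OFL libraries of AKR, and 6 higher and 14 lower in those of B6N. Over all genes 39.8% were higher and 38.8% lower in AKR, and 40.0% and 38.4% in B6N. The interaction was called for Hif3a, Epas1 and Hsp90ab1, all positive.

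Other targets of HIF moved in both directions between the strains. Of 40 tested, 7 were higher and 11 lower in naive AKR, with a median of -0.10, where 18.3% of all genes were higher and 19.5% lower. Ddit4, a brake on the growth kinase mTOR, was lower at -0.70 (SE 0.06), as was Egln1, while Rragd (0.31, SE 0.04), a GTPase of amino acid sensing, and the synaptic scaffold gene Ppfia4 (0.34, SE 0.05) were higher. Of 38 tested in OFL libraries, 3 were higher and 9 lower in AKR, with a median of 0.02, where 7.50% of all genes were higher and 8.86% lower. The carbonic anhydrase gene Car12 was higher by 1.37 (SE 0.11) and Ppfia4 by 0.32 (SE 0.07), while the adenylate kinase gene Ak4 (-0.40, SE 0.06) and Pdgfb (-0.45, SE 0.09), a growth factor for pericytes, were lower. The interaction was called for 5 of 40, where 5.15% of all genes were called. It was positive for Car12 (0.94, SE 0.13), Pfkfb3 (0.39, SE 0.10), a regulator of glycolysis, and P4ha2 (0.48, SE 0.14), a relative of P4ha1. It was negative for the transferrin receptor gene Tfrc (-0.28, SE 0.07) and the lactate exporter gene Slc16a3 (-0.85, SE 0.25), the last named after its values were seen.

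Between the sets, 8 of 40 other targets were higher and 25 lower in OFL libraries of AKR, and 6 were higher and 28 lower in B6N, with medians of -0.28 and -0.42. Over all genes 39.8% were higher and 38.8% lower in AKR, and 40.0% and 38.4% in B6N. Lists of other cell types leaned the same way in part. Of 8 neuron markers 1 was higher and 6 lower in each strain, and of 6 striatal markers 1 and 4. Of 5 blood markers 3 were higher and none lower. In the fit free of opposite-strand exons, differences shifted upward by a median of 0.15 (AKR) and 0.18 (B6N). Whether the lean of the HIF lists, relatives or glycolysis genes is particular to them was not tested. In AKR the histone demethylase gene Kdm3a was higher (0.62, SE 0.05) and Ppfia4 (-0.73, SE 0.06), Ddit4 (-1.23, SE 0.10) and Zfp395 (-1.54, SE 0.13) were lower. In B6N Tfrc (0.72, SE 0.05) and the lipoprotein receptor gene Vldlr (0.50, SE 0.04) were higher, and Ddit4 (-1.44, SE 0.09) and Egln1 (-0.68, SE 0.04) were lower.

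Relatives of the members by gene family often differed from the member. Of 27 tested, 7 were higher and 5 lower in naive AKR, against 18.3% and 19.5% of all genes. Among the higher ones were the hexokinase gene Hkdc1 (0.58, SE 0.05) and the sugar transporter genes Slc2a5 (0.86, SE 0.09) and Slc2a8 (0.41, SE 0.05). Of 26 tested in OFL libraries, 6 were higher and 1 lower in AKR, against 7.50% and 8.86% of all genes. Slc2a6 (0.37, SE 0.07) and Hkdc1 (0.36, SE 0.09) were among the higher ones. Between the sets 1 of 27 was higher and 21 lower in OFL libraries of each strain, where 39.8% (AKR) and 40.0% (B6N) of all genes were higher and 38.8% and 38.4% lower. The higher one was the kinase gene Pdk3 (0.72, SE 0.06, in AKR and 0.60, SE 0.06, in B6N), named after its values were seen. Vegfb, a relative of Vegfa, was at 17.1 CPM in AKR OFL against 64.0 CPM in naive AKR (-1.91, SE 0.07) and at 14.3 CPM in B6N OFL against 58.6 CPM in naive B6N (-2.04, SE 0.07). Pdk2 was lower by -1.40 (SE 0.06) in AKR and -1.78 (SE 0.07) in B6N, where Pdk1 was higher. Ldhb, which encodes the other subunit of the dehydrogenase, was lower at -0.94 and -0.87 (SE 0.04 each), as Ldha was. The interaction was called for Pdk2 (0.38, SE 0.09) and P4ha2.

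Of 22 other glycolysis and pyruvate genes, 4 were higher and 4 lower in naive AKR, and none higher and 3 lower in AKR OFL against B6N OFL. Over all genes 18.3% were higher and 19.5% lower in the naive comparison, and 7.50% and 8.86% in the OFL comparison. The lower ones of the OFL comparison were Eno1 (-0.66, SE 0.05), Gapdh (-0.26, SE 0.04) and Aldoc (-0.19, SE 0.05), the fructose bisphosphate aldolase of astrocytes. Eno1 and Gapdh were also lower in naive AKR (-0.62 and -0.16), Pdp1, which undoes the action of the PDK kinases, was lower at -0.30 (SE 0.06), and the lactate transporter gene Slc16a1 was higher by 0.62 (SE 0.06). Both Eno1 and Gapdh have near-identical copies in the mouse genome, so their values are uncertain. Between the sets 6 of 22 were higher and 14 lower in OFL libraries of each strain. Over all genes 39.8% were higher and 38.8% lower in AKR, and 40.0% and 38.4% in B6N. Slc16a7, a lactate and pyruvate transporter, was higher by 1.19 in AKR and 1.17 in B6N, and Mpc1, a subunit of the mitochondrial pyruvate carrier, by 1.87 and 2.07, with antisense exons over 23.1% of its exonic sequence. The interaction was called for Slc16a1 (-0.56, SE 0.08).

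How the members vary together was described by Pearson's r of log2 CPM over the 14 libraries, after each set was centred on its own mean. The libraries of a set share the strain difference, which enters every r. Slc2a1 and P4ha1 were the most alike pair of members (r = 0.907), followed by Ldha and Pdk1 (0.815). Egln3 had its highest r with Vegfa (0.122) and its lowest with Pdk1 (-0.792). Among 11448 genes searched, the gene most like Slc2a1 was Clip1 (r = 0.972), that most like P4ha1 was Pdia6 (0.970), that most like Pdk1 was Vill (0.987), and that most like Egln3 was Dgcr2 (0.944). For the others they were Atp6v1b2 for Ldha (0.957), Shtn1 for Ndrg1 (0.914), Robo2 for Bnip3 (0.886), Gdpd1 for Pgk1 (0.884), Bach2 for Vegfa (0.862) and Aass for Hk2 (0.854).

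Markers of other cell types differed between groups as well. Astrocyte markers (8 genes, among them Aqp4 and Gfap, none at 0) summed to 4235 to 4344 CPM in AKR OFL, 4900 to 5046 in B6N OFL, 3536 to 4139 in naive AKR and 3911 to 4231 in naive B6N. Most of that sum was Slc1a2, the glutamate transporter gene, at 3207 CPM in AKR OFL, 3888 CPM in B6N OFL, 2142 CPM in naive AKR and 2501 CPM in naive B6N. Between the strains, 2 of the 8 were called higher and 2 lower in naive AKR, and 1 higher and 2 lower in AKR OFL against B6N OFL. Between the sets, 2 of the 8 were called higher and 4 lower in OFL libraries of AKR, and 3 higher and 5 lower in those of B6N. Among the lower ones were Gfap (60.2 CPM in AKR OFL against 119 CPM in naive AKR) and Atp1b2 (80.0 CPM in AKR OFL against 424.5 CPM in naive AKR). Slc4a4 went the other way, at 203.5 CPM in AKR OFL against 148.7 CPM in naive AKR and 201.4 CPM in B6N OFL against 131.1 CPM in naive B6N. Microglia markers (8 genes) summed to 284 to 301 CPM in AKR OFL, 285 to 296 in B6N OFL, 322 to 378 in naive AKR and 339 to 385 in naive B6N. Within these sums 3 markers were called higher and 3 lower in naive AKR, and 3 higher and 2 lower in AKR OFL against B6N OFL. Striatal markers (6 genes) summed to 75.1 to 84.9 CPM in AKR OFL and 80.2 to 87.3 CPM in B6N OFL. Their sums were 92.85 to 112 CPM in naive AKR and 103 to 121 CPM in naive B6N. Of these 6, 1 was called higher and 4 lower in OFL libraries of each strain. None was higher and 2 were lower in naive AKR against naive B6N. Markers of pericytes and smooth muscle (8 genes) summed to 232 to 283 CPM in all libraries. Of 7 pericyte and smooth muscle markers tested in naive libraries, 2 were higher and 4 lower in AKR. Of 8 tested in OFL libraries, 2 were higher and 3 lower in AKR. Between the sets 3 of these 8 were higher and 5 lower in OFL libraries of AKR, and 2 higher and 4 lower in those of B6N. Of the blood markers (5 genes, globins and Alas2, none at 0), 4 were lower in AKR in each set, and they summed to 35.2 to 46.3 CPM in AKR OFL, 75.8 to 97.7 in B6N OFL, 18.9 to 33.2 in naive AKR and 47.5 to 55.7 in naive B6N. The globin genes differed unequally. In AKR OFL, B6N OFL, naive AKR and naive B6N, Hba-a2 was at 0.17, 9.23, 0.15 and 9.02 CPM. In that order Hbb-bt was at 0.894, 9.65, 0.407 and 4.22 CPM. Hbb-bs was at 24.8, 49.1, 13.8 and 21.2 CPM, and Hba-a1 at 11.7, 13.2, 12.7 and 15.6 CPM. Whether the sum follows the amount of blood was not tested. The part of these cell types in the members' differences was not tested.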

How the data were processed

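The raw counts that the authors deposited, by Ensembl gene and in 1 table for each of the 2 library sets, were used as they stand. Per the labels' protocols, Trizol was used for RNA and a TruSeq RNA kit for the libraries. Per the submitters' processing notes, CASAVA, cutadapt 2.7, TopHat2 2.1.1, HTSeq and edgeR were used with build GRCm38. The annotation release, strand setting and treatment of multiply mapped reads are not given in the sources used here. The authors' 14 tables of scaled values per sample were not used.

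Names, positions and exon lengths came from GENCODE M21 (GRCm38), which named 53360 of 53465 identifiers. Differences were tested with edgeR 4.0.16 (R 4.3.3, limma 3.58.1): filterByExpr by group, TMM, the two-sided quasi-likelihood F-test and Benjamini-Hochberg adjustment over all genes. Strain differences were fitted within each set, and the OFL minus naive differences and the interaction in 1 fit of 14 libraries. The SE is the log2 difference over the root of F. Levels use TMM over all 14 libraries. Exonic overlaps and copies (shared stretches of 31 bases, at least 20 of them and 5% of the copy) were computed from GENCODE. Likeness used genes of at least 5 CPM and a pseudocount of 0.5 CPM. Aldoa had 2 identifiers and was left out.

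The members, the lists and the tests were chosen with earlier results of these data known. All members were to be named, with 8 genes of the HIF machinery and, per comparison, up to 4 called genes of smallest p from each other list. Some genes stand in several lists. The fits were tested on simulated counts. DESeq2 1.42.0 and the other alternatives are given in the closing section. Same-numbered libraries did not deviate together, so the numbers were taken as names.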

Additional observations from a re-analysis of the deposited data

Results flagged for a closer look

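The interaction of Slc2a1 was 0.58 on the log2 scale: relative to naive libraries its level in OFL libraries was lower by less in AKR than in B6N. The interaction of P4ha1 was 0.49, since its level in OFL libraries was higher by more in AKR than in B6N. Both passed edgeR's test of the difference itself (adjusted p = 1.86e-05 and 0.00247). When any 1 library was left out they ranged from 0.53 to 0.62 for Slc2a1 and from 0.40 to 0.55 for P4ha1. In naive AKR, 1 Slc2a1 library (replicate 1) stood apart from the other 3 at 120.4 CPM. Chance flags about 1 group in 20 in this way. The rule was applied to the naive groups only, and the OFL groups of 3 libraries were not examined.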

How the results depend on the processing

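The count of members called changed by at most 1.5 times under every alternative but 1. Fitting protein-coding nuclear genes free of opposite-strand exons called 1 member for the interaction, because Slc2a1 is not in that fit. Without 1 library it was 5 to 7 in the naive comparison, 2 to 3 in the OFL comparison, 8 to 9 for AKR, 8 in all fits for B6N and 2 in all fits for the interaction. Of 795 values of single members under an alternative, 738 kept direction and call, 15 lost the call, 1 gained it and 41 changed sign, none of them called. The same restricted fit called 4048, 1641, 7768, 7774 and 542 genes in all (naive, OFL, AKR, B6N, interaction), against 6668, 2943, 15968, 15916 and 1044, having fewer genes to test, and the OFL comparison called 1934 without B6N OFL replicate 2. The signs that changed belong to differences near 0. Pgk1 stood at 0.010 (upper-quartile factors) and 0.0009 (no count filter) in naive libraries, and at 0.0052 (upper-quartile factors) and 0.0064 (all 14 libraries) in OFL libraries, where P4ha1 stood at 0.0007 (all 14 libraries). With OFL minus naive, Ndrg1 stood at 0.0066 in AKR (upper-quartile factors) and at 0.027 (DESeq2) and 0.050 (upper-quartile factors) in B6N. Hk2 in B6N stood at 0.024 (DESeq2), 0.045 (upper-quartile factors), 0.17 (restricted fit) and 0.078 (replicate block). In the restricted fit the interaction was -0.0247 for Pgk1 and -0.0266 for Ldha. Without 1 library, Pgk1 ranged from -0.013 to 0.0099 (naive), -0.038 to 0.049 (OFL) and -0.023 to 0.054 (interaction), and P4ha1 (OFL) from -0.10 to 0.046. Hk2 ranged from -0.13 to 0.16 (OFL) and from -0.051 to 0.054 (B6N), and Ndrg1 from -0.11 to 0.061 (B6N) and from -0.11 to 0.063 (interaction). The interaction of Ldha ranged from -0.028 to 0.044 and that of Bnip3 from -0.081 to 0.015. The cause of these changes was not tested. Same-numbered libraries correlated at -0.074 to 0.0607, and with the replicate block 7, 3, 9, 8 and 2 members were called, as without it, and 6229, 3021, 15766, 15722 and 1013 genes in all. The 3 or 4 libraries per group limit the precision, most for Hk2, which has the fewest counts.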
